A study of Rattus norvegicus with 12 samples.

Results

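Basement membranes are thin sheets of extracellular matrix on which epithelial and endothelial cells rest. Laminins, each built of 1 alpha, 1 beta and 1 gamma chain, and collagen IV form separate networks in them, and the nidogens link the networks to each other. Cells hold on to laminins through integrins, dystroglycan and Bcam, the Lutheran blood group glycoprotein, an immunoglobulin-superfamily receptor for laminins with the alpha 5 chain. In liver, bile ducts and the larger vessels have a continuous basement membrane, while the sinusoids that line hepatocyte plates do not.

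Described here are 9 genes of this sheet and its receptor, among 22093 genes measured on rat expression arrays: the laminin chain genes Lama2, Lamb3, Lamc1 and Lamb1, the nidogen genes Nid1 and Nid2, the collagen IV chain genes Col4a1 and Col4a2, and Bcam. The genes were chosen by symbol, and where a gene had several probe sets the one with the highest mean over 12 arrays would have stood for it. Each of the 9 had 1 probe set, so this mean decided nothing between probe sets. The list was drawn up with earlier results of these arrays known, in which Lama2, Lamb3, Nid2 and Bcam had already been named for their differences from control. The differences of those 4 genes, and the adjusted p-values that place them in the fit over all genes, are therefore a description of why they stand here and not independent support.

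The arrays hold RNA of TRL1215, an established line of rat liver epithelial cells, so all samples come from 1 line in culture. The 4 groups of 3 arrays are the passage-matched control, grown in the same medium with weekly passage and no added compound, and cells that received PFOA (perfluorooctanoic acid, a surfactant with a fluorinated tail) at 10 µM in the group T10, at 50 µM in T50 and at 100 µM in T100. Exposure lasted up to 38 weeks, with no week of RNA extraction stated in the labels. The study asked what such long exposure does to the cells. Whether replicates were grown as separate cultures is not stated either, so the p-values reflect the spread among these arrays alone, which may be technical, and 3 arrays a group limit their precision. All 3 comparisons with control share the same 3 control arrays.

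Values are log2 signals, and each probe set is compared only with itself across groups. Background is the 95th percentile of 1153 negative-control probe sets, with group means of 5.42 (control), 5.77 (T10), 5.52 (T50) and 5.65 (T100). Of all genes, 4581 (20.7%) were above it in at least 1 group, and of the 9 genes 7 were, all but Col4a1 and Col4a2. A difference is called where its adjusted p, from limma with Benjamini-Hochberg adjustment over all 22093 genes, is under 0.05. T10 replicate 1 was the lowest of its group for 7 of the 9 genes and for 59.0% of genes above background, with a 95th percentile over genes of 9.36 and a background of 5.88. Similarly, T100 replicate 2 was the lowest for 7 of the 9 genes and for 49.0% of genes above background, with a 95th percentile of 9.59 and a background of 5.82. The T10 group as a whole had 95th percentiles of 9.36 to 9.48, against 9.53 to 9.61 in control. Its backgrounds were 5.69 to 5.88, against 5.36 to 5.52 in control. Since these ranges do not overlap, T10 differences from control and differences in the arrays' signal range cannot be well told apart, also with the 95th percentile as a covariate.

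Of the 9 genes, 2 were called in T10, both lower than in control (Lamb3 and Bcam), where 0.869% of all genes were called in either direction. In T50, 1 was called higher (Lama2) and 2 lower (Lamb3 and Bcam), against 1.31% of all genes. In T100, 3 were called lower (Lamb3, Nid2 and Bcam), against 1.46% of all genes. Since the list was made with these results known, nothing is read from those counts. The median log2 difference of the 9 genes was -0.11 in T10, -0.14 in T50 and -0.12 in T100, beside -0.004, 0.005 and 0.003 over all genes, and beside -0.09, 0.002 and 0.05 over the genes above background. All 3 arrays lay below every control array for 5 of the 9 genes in T10, 4 in T50 and 4 in T100, and above every control array for Lama2 in T50 and T100. Over all genes the arrays of the groups did not overlap, in either direction, for 17.0%, 17.0% and 18.1% of genes at those doses. The exposed arrays lay below every control array for 2350, 1610 and 1633 of all 22093 genes, and above for 1396, 2153 and 2373. Among the 4581 genes above background they lay below for 1161, 578 and 388, and above for 130, 711 and 1050. Lama2, Lamb3, Nid2 and Bcam were listed with their differences known, so nothing is read from these medians and array counts either.

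**Figure D1:**
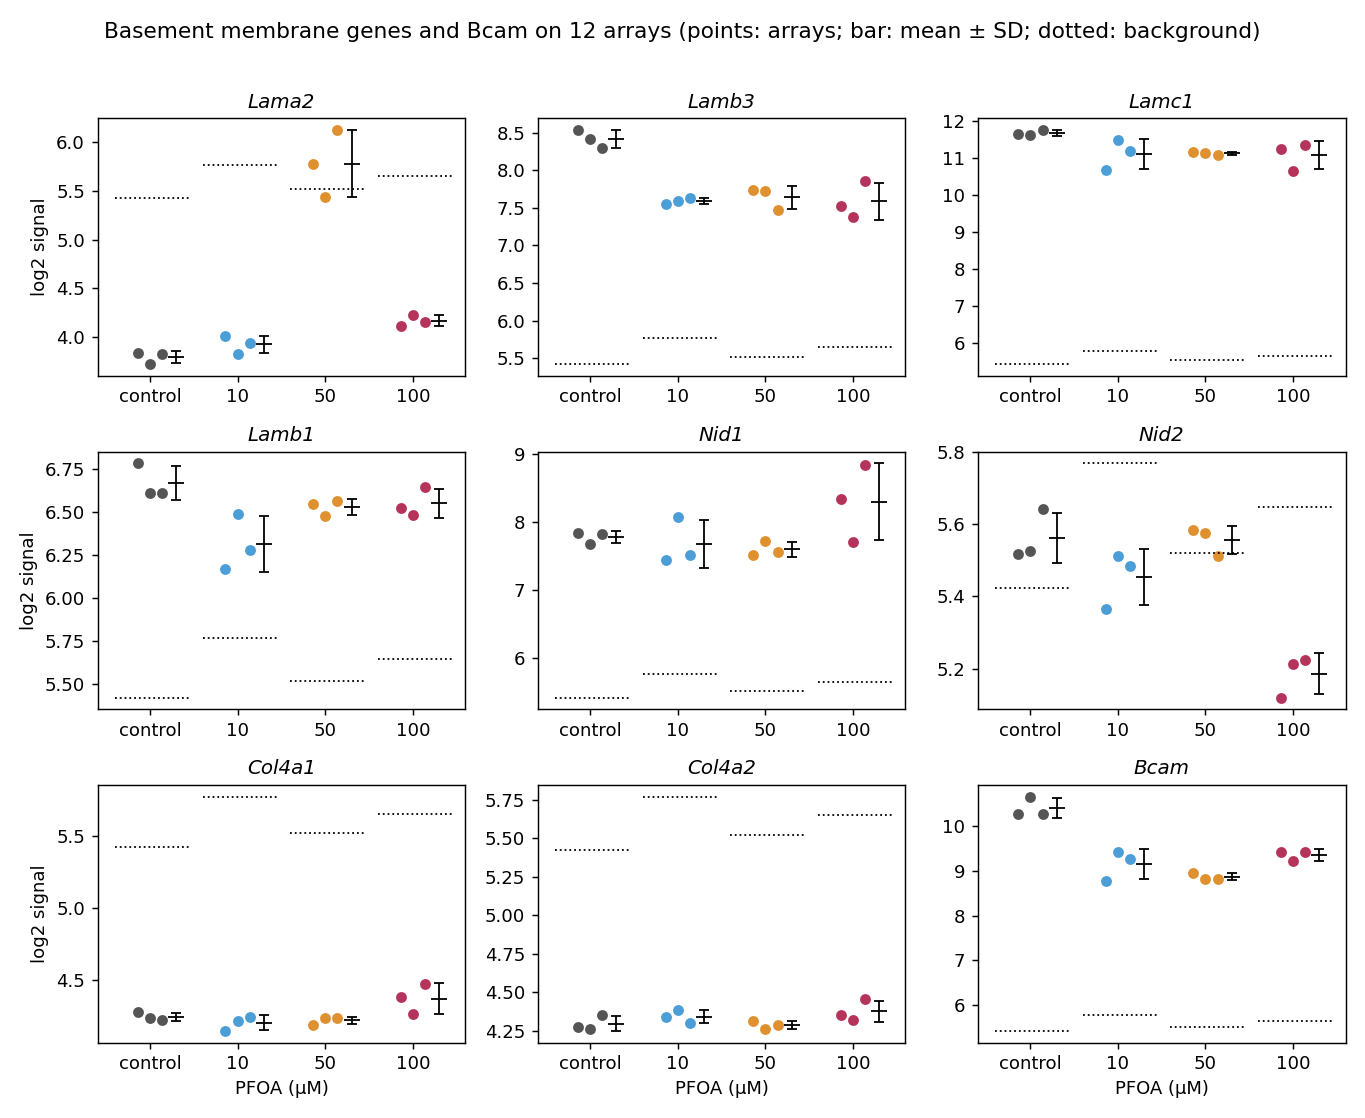
Log2 signal of the 9 genes on each array (points), with the group mean and SD (bars, n = 3) and the background of each group (dotted), in control cells and at 10, 50 and 100 µM PFOA. Lama2 passed background only in T50 by its mean, Lamb3 and Bcam lay below all control arrays at every dose, and Col4a1 and Col4a2 were under background throughout. Each panel has its own axis.

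The bases before the transcription starts of Lama2, Lamb3 and Bcam are shown because Lama2 was high in 1 dose group alone while Lamb3 and Bcam were lower at all 3 doses. They are the 250 bases upstream of the start in RefSeq's annotation of GRCr8, 5′ to 3′ on the gene's strand, at chr1:19491896-19492145 (plus strand) for Lama2, chr13:107362303-107362552 (plus strand) for Lamb3 and chr1:88557359-88557608 (minus strand) for Bcam. Of the 9 genes, 8 had an entry in the table used, and Nid2 had none. Capitals mark every match, on either strand, of 6 motifs: the GC box GGGCGG, the CCAAT box CCAAT, the TATA box TATAAA, the AP-1 site TGANTCA, the cAMP response element TGACGTCA and the TEAD site GGAATG.
Lama2: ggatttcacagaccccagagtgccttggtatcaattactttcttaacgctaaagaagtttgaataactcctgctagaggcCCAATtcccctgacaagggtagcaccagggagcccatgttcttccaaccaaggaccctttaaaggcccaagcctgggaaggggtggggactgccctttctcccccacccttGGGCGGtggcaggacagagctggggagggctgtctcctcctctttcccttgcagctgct
Lamb3: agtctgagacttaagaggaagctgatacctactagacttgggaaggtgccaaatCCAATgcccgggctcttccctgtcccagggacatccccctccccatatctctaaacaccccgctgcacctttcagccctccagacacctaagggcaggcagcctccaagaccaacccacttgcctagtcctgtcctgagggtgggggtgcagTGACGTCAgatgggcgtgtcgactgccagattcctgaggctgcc
Bcam: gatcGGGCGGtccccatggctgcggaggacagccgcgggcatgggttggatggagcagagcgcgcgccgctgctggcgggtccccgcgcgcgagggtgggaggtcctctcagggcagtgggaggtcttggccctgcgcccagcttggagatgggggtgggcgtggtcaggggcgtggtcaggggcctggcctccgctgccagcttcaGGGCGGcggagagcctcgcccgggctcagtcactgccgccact
The Lama2 window held a CCAAT box with its first base at -170 and a GC box at -59. The Lamb3 window held a CCAAT box at -196 and a cAMP response element at -44. The Bcam window held 2 GC boxes and none of the other 5 motifs. None of the marked matches overlapped another. Of 33469 rat promoters of the same length, 30.5% held the GC box, 34.0% the CCAAT box, 12.9% the TATA box, 6.34% the AP-1 site, 1.59% the cAMP response element and 12.1% the TEAD site. Lamb3 and Bcam, which were lower together, thus shared none of the 6 motifs in these windows. A match describes letters in the window, and its use in these cells was not measured.

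Lama2, which encodes the laminin alpha 2 chain of muscle and Schwann cell basement membranes, had a signal above background in a single dose group. It read 3.83, 3.72 and 3.82 on the control arrays, 4.01, 3.83 and 3.93 in T10, 5.78, 5.44 and 6.13 in T50, and 4.11, 4.23 and 4.16 in T100. The T50 arrays were more than 1 log2 unit above all 9 others, and 2 of them passed their own array's background, whereas no array of another group did. In T50 the measured difference from control was 1.99 ± 0.14 (SE, adjusted p = 0.000267). Because the control signal was under background, the size of this difference is uncertain, and no fold is given. The measured differences of 1.86 ± 0.14 between T50 and T10 (adjusted p = 0.000321) and of -1.62 ± 0.14 between T100 and T50 (adjusted p = 0.000847) have the same limit. The T10 and T100 differences from control, at 0.13 and 0.37, were not called (adjusted p = 0.749 and 0.279), and these signals were under background. The order of the means was thus T50, T100, T10 and control, with T50 alone apart from its neighbour by a call. Under the fit to the 6 arrays compared alone, the adjusted p of T100 against T50 was 0.0567. Tek, the 1 endothelial marker of 8 above background, read 6.66 to 6.88 in T50 and 6.41 to 6.56 in control, a difference of 0.29 that was not called (adjusted p = 0.333), and its part in the Lama2 difference was not tested.

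Lamb3 encodes the beta 3 chain of the epithelial laminin that anchors cells at hemidesmosomes. Its control arrays read 8.53, 8.42 and 8.30, its T10 arrays 7.55, 7.59 and 7.63, its T50 arrays 7.73, 7.73 and 7.47, and its T100 arrays 7.52, 7.38 and 7.86. All 9 exposed arrays lay under the lowest control array, and the dose groups overlapped one another. Lamb3 was lower than control by a log2 difference of -0.83 ± 0.12 in T10 (1.77-fold lower, adjusted p = 0.0128), -0.77 ± 0.12 in T50 (1.71-fold lower, adjusted p = 0.0144) and -0.83 ± 0.12 in T100 (1.78-fold lower, adjusted p = 0.0115). In bulk RNA, fewer cells with the transcript and less transcript per cell cannot be told apart. Between the doses the differences were 0.05 (T50 against T10), -0.002 (T100 against T10) and -0.05 (T100 against T50), none of them called. The calls rested on single arrays in part: without control replicate 1 the adjusted p was 0.0573 in T10 and 0.0633 in T50, without control replicate 2 it was 0.0632, 0.0622 and 0.0531 at the 3 doses, and without T10 replicate 1 it was 0.0612 in T10. With each array's 95th percentile as a covariate the T10 difference was -0.48 (adjusted p = 0.339), in a fit that called 15 of all genes in T10 in place of 192, and with the 6 arrays compared alone the adjusted p was 0.0509 in T50 and 0.0834 in T100.

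Lamc1 and Lamb1 encode the gamma 1 and beta 1 chains, which pair with several alpha chains in most laminins. Lamc1 read 11.64, 11.62 and 11.75 in control, 10.68, 11.48 and 11.18 in T10, 11.15, 11.15 and 11.08 in T50, and 11.24, 10.66 and 11.35 in T100. No exposed array reached the lowest control array, but the T10 and T100 arrays were widely spread. Lamc1 differed from control by -0.56 in T10, -0.55 in T50 and -0.59 in T100, with 95% intervals of -1.02 to -0.10, -1.01 to -0.08 and -1.05 to -0.13, and was not called at any dose (adjusted p = 0.301, 0.353 and 0.256). With the 95th percentile as a covariate the T10 difference was -0.002, and with the 6 arrays compared alone the T50 difference was called (adjusted p = 0.0254). Lamb1 read 6.78, 6.61 and 6.61 in control, 6.17, 6.49 and 6.28 in T10, 6.55, 6.48 and 6.56 in T50, and 6.52, 6.49 and 6.65 in T100. Its T10 and T50 arrays lay below all control arrays, and its T100 arrays overlapped them. The differences of -0.35, -0.14 and -0.12 were not called (adjusted p = 0.0941, 0.624 and 0.652), while without T10 replicate 2 that of T10 was (adjusted p = 0.0299), as it was in the fit of genes above background only.

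The nidogens are rod-shaped linkers between the laminin gamma 1 chain and collagen IV. Nid2 read 5.52, 5.53 and 5.64 in control, 5.36, 5.51 and 5.48 in T10, 5.58, 5.57 and 5.51 in T50, and 5.12, 5.21 and 5.22 in T100. The T100 arrays were the 3 lowest of the 12. In T100 Nid2 was -0.38 ± 0.05 from control (adjusted p = 0.00941), -0.27 ± 0.05 from T10 (adjusted p = 0.0251) and -0.37 ± 0.05 from T50 (adjusted p = 0.00845). The signal was close to background in control and T50 and under it in T10 and T100, so no fold is given for T100. The difference from T10 was not called without T10 replicate 2 (adjusted p = 0.0513), T10 replicate 3 (0.0757), T100 replicate 1 (0.0734) or T100 replicate 3 (0.0577), nor with the covariate (0.449) or the 6 arrays alone (0.126). With the 6 arrays alone the adjusted p was 0.0606 against control and 0.0582 against T50.

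Nid1 read 7.84, 7.67 and 7.82 in control, 7.43, 8.07 and 7.51 in T10, 7.51, 7.72 and 7.56 in T50, and 8.34, 7.71 and 8.83 in T100. Of the T100 arrays, 2 were the highest of the 12, and the third lay among the control arrays. The differences from control were -0.11 ± 0.25 in T10, -0.18 ± 0.25 in T50 and 0.51 ± 0.25 in T100, and none was called (adjusted p = 0.912, 0.876 and 0.461). The 95% interval of the T100 difference ran from -0.05 to 1.08. Whether the T100 responses of Nid1 and Nid2 differ from each other was not tested, since they are 2 probe sets.

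Col4a1 and Col4a2 encode the chains of the most widespread collagen IV, and their genes lie head to head and share the bases between their starts. Those 76 bases, at chr16:84885521-84885596 on GRCr8 and written on the plus strand, are shown for that reason, with the GC box in capitals.
Between Col4a2 and Col4a1: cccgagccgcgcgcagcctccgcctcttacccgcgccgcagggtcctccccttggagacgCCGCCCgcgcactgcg
Col4a1 lay between 4.15 and 4.47 on the 12 arrays and Col4a2 between 4.26 and 4.46, so both were under background in every group. The T100 means were 4.37 ± 0.11 for Col4a1 and 4.38 ± 0.07 for Col4a2, against control means of 4.24 ± 0.03 and 4.30 ± 0.05 (SD, n = 3 each). The differences at that dose, 0.13 (95% interval 0.02 to 0.24) and 0.08 (-0.01 to 0.17), were not called (adjusted p = 0.321 and 0.491), nor were those in T10 and T50, which lay between -0.04 and 0.04. These probe sets repeated closely between arrays, but a signal so far under background says little on the level of either transcript.

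Bcam read 10.28, 10.65 and 10.27 in control, 8.77, 9.42 and 9.26 in T10, 8.95, 8.83 and 8.82 in T50, and 9.43, 9.21 and 9.43 in T100. All 9 exposed arrays lay at least 0.83 log2 units under the lowest control array. Bcam was lower than control by -1.25 ± 0.16 in T10 (2.37-fold lower, adjusted p = 0.00887), -1.53 ± 0.16 in T50 (2.89-fold lower, adjusted p = 0.00291) and -1.04 ± 0.16 in T100 (2.06-fold lower, adjusted p = 0.0158). Ranked by size it was number 20 of the 158 genes called lower in T10, number 6 of 125 in T50 and number 18 of 115 in T100. The means ran from control downward through T100 and T10 to T50, and no pair of doses differed by a call (T50 against T10 -0.28, adjusted p = 0.476, T100 against T10 0.21, adjusted p = 0.553, T100 against T50 0.49, adjusted p = 0.257). The T50 difference was called under all 19 alternative settings. With the 95th percentile as a covariate the T10 difference was -0.89 (adjusted p = 0.339), without control replicate 2 the T100 adjusted p was 0.0667, without T100 replicate 2 it was 0.0532, and with the 6 arrays alone it was 0.123 in T10 and 0.0553 in T100.

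**Figure D2:**
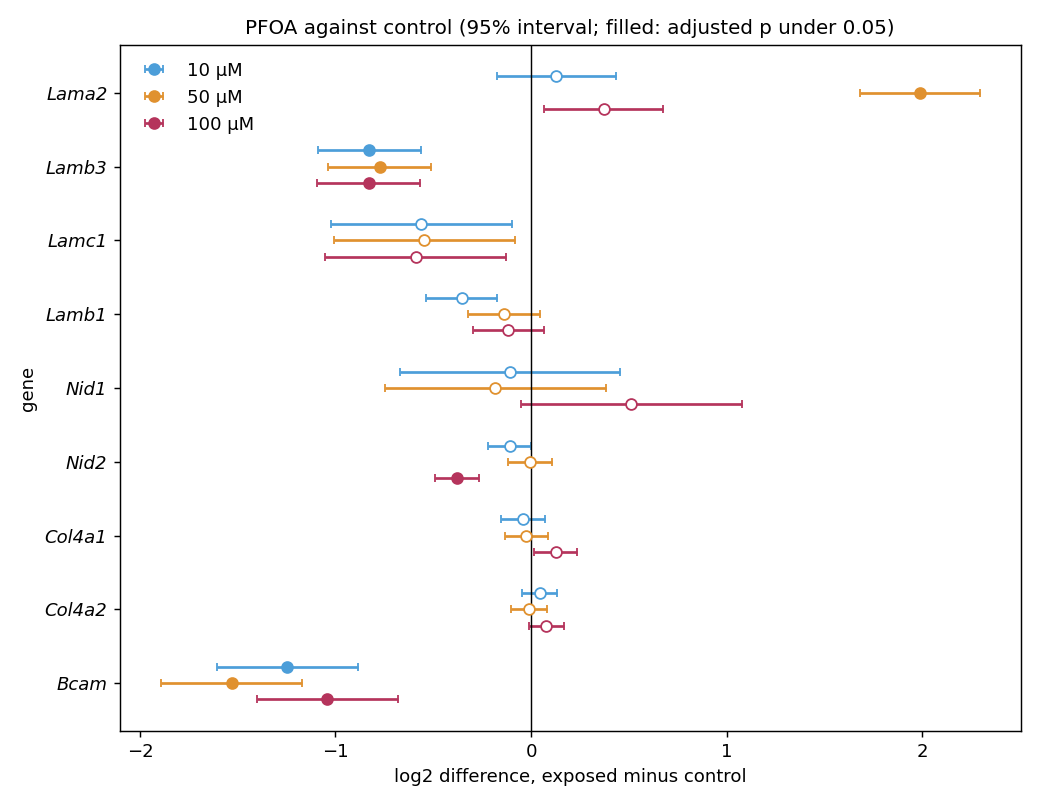
Log2 difference from control of each of the 9 genes at 10, 50 and 100 µM PFOA, with 95% intervals from the fit over all genes; filled points have an adjusted p under 0.05. Lama2 at 50 µM stands alone on the right at 1.99, Bcam and Lamb3 lie left of 0 at every dose, and the nidogen and collagen IV points lie near 0 apart from Nid2 at 100 µM and Nid1 at 100 µM, whose interval crosses 0.

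Compared among the doses, 1 of the 9 genes was called between T50 and T10 (Lama2), 1 between T100 and T10 (Nid2) and 2 between T100 and T50 (Lama2 and Nid2), where 2.01%, 3.08% and 1.16% of all genes were called. Over the 4 groups at once, the F test called Lama2, Lamb3, Nid2 and Bcam (adjusted p = 0.000315, 0.00908, 0.00812 and 0.00375) and 3.8% of all genes. The F test uses the same differences from control for which these 4 genes had already been named. Nothing is therefore read from its count, nor from the counts between doses, where the called genes are among those 4.

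The genes whose pattern over the 12 arrays was most like that of these 4 were found by Pearson's r, which is given as a description because the arrays share groups. They were taken from 3726 of the 4581 genes above background, leaving out genes with the same value on 3 or more arrays and provisional symbols. For Lama2 they were Ddx47 (r = 0.965), Dnajc2 (0.953) and Cul1 (0.95), which were higher in T50 than in control by smaller differences of 0.48, 0.65 and 0.53. For Lamb3 they were Lgmn (0.954), Wnk3 (0.946) and Gna12 (0.937), for Nid2 Scmh1 (0.906), Snx9 (0.877) and Slc28a2 (0.872). For Bcam they were raga, as the annotation spells it (0.949), Jup (0.947), which encodes the junction protein plakoglobin, and Tex101 (0.928). Jup differed from control by -0.70, -0.83 and -0.63 in T10, T50 and T100.

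Of the other laminin and collagen IV chains with a probe set of their own, Lama1, Lama3, Lama4, Lama5, Lamc3, Col4a3, Col4a4 and Col4a5 had means under background in every group, and Lamb2 was above it in control alone (5.63 ± 0.07, SD). Lama3 encodes the alpha chain that partners the Lamb3 product, and it read between 4.52 and 4.99 on the 12 arrays. Col4a6 is not analysed here. The alpha 5 chain that Bcam binds is encoded by Lama5, which averaged 5.35 ± 0.06 in control cells, 5.03 ± 0.15 in T10 cells, 4.80 ± 0.04 in T50 cells and 5.02 ± 0.11 in T100 cells (SD, n = 3 each). Its exposed arrays all lay below the control arrays, and the T50 difference of -0.55 ± 0.08 was called (adjusted p = 0.00928), with all 12 values under the background of their group.

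Beyond the 9 genes, 94 others of the pathway were measured, in lists of structural matrix genes (37), receptors with their linkers and the enzymes that glycosylate dystroglycan (27), and collagen synthesis, secretion and turnover (30). Against control, 0 were called higher and 2 lower in T10 (Fbln2 and Sdc1), 0 higher and 1 lower in T50 (Lama5), and 1 higher and 1 lower in T100 (Cd151 and Itgb4). These counts are near the shares called over all genes (0.869%, 1.31% and 1.46%), so they show nothing particular to the 94. By sign alone 34, 37 and 47 of the 94 were higher and 58, 56 and 45 lower in T10, T50 and T100. All 3 exposed arrays lay above every control array for 7, 12 and 15 of them, and below for 25, 19 and 11. Over all 22093 genes they lay above for 1396, 2153 and 2373 genes, and below for 2350, 1610 and 1633. Among the 4581 genes above background they lay above for 130, 711 and 1050, and below for 1161, 578 and 388. The median log2 difference of the 94 was -0.03 in T10, -0.02 in T50 and 0.00 in T100.

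Among the structural genes Fbln2, which encodes fibulin 2, a laminin- and nidogen-binding glycoprotein, stood out. It read 13.36, 13.36 and 13.36 in control, 11.46, 12.27 and 11.81 in T10, 14.25, 14.56 and 14.19 in T50, and 13.33, 12.92 and 13.49 in T100. The control SD was 0.0018, against 0.41 in T10, 0.20 in T50 and 0.30 in T100. Control values so nearly equal bear on the spread used in the fit. The T10 arrays were lowest and the T50 arrays highest, without overlap with any other group. Fbln2 fell in T10 (-1.51 ± 0.20, 2.85-fold lower than control, adjusted p = 0.0098), and T50 exceeded T10 by 2.49 ± 0.20 (5.60-fold, adjusted p = 0.000644). Its T50 difference from control was 0.98 (adjusted p = 0.0557). The T10 call against control was absent with the 95th percentile as a covariate (-0.88, adjusted p = 0.242) and with the 6 arrays alone (0.0857). Ecm1, the gene of a glycoprotein that binds perlecan and fibulins, is named after its values were seen. It averaged 9.19 in T10 and 8.67 in control, and was not called against control at any dose. Compared with T10 it was lower in T50 (-0.92 ± 0.12, adjusted p = 0.00534) and T100 (-0.85 ± 0.12, adjusted p = 0.00848). With the covariate those adjusted p-values were 0.05 and 0.240, and with the 6 arrays alone that of T100 was 0.0970. Where no structural gene was called, in T100, the smallest p-values were those of Lama5 and Tinagl1 (-0.84, adjusted p = 0.0751).

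Among the receptors Cd151, the tetraspanin that partners laminin-binding integrins, averaged 15.28 ± 0.04 in T100 and 14.94 ± 0.10 in control (SD, n = 3 each), a rise of 0.35 ± 0.04 (adjusted p = 0.00856), with adjusted p = 0.0571 after quantile normalization and 0.0821 with the 6 arrays alone. Itgb4, which encodes the hemidesmosome integrin chain that binds the Lamb3-containing laminin, was under background in every group (3.76 in T100 and 3.96 in control, adjusted p = 0.0107). Its adjusted p was 0.0522 without control replicate 2. The syndecan gene Sdc1 fell by 0.22 in T10 (adjusted p = 0.018), by 0.05 after quantile normalization (adjusted p = 0.708), and its call was absent under 8 of the 19 alternatives, among them those without control replicate 2 (0.0858), control replicate 3 (0.0674), T10 replicate 1 (0.0766) or T10 replicate 3 (0.0607). Sdc1 held the same value, 11.36, on 4 arrays of T50, T100 and control, and Cd151 the value 15.10 on 4 arrays of T10 and T50, and both are among 852 genes with 1 value on 3 or more arrays, which bears on such small differences and their spread. In T50 no receptor gene was called, and the smallest p-values were those of Sgce, epsilon-sarcoglycan (0.46, adjusted p = 0.0654), and Cd151 (0.17, adjusted p = 0.121).

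Itga2, which encodes the collagen- and laminin-binding integrin alpha 2 chain, is named after its values were seen. It read 8.14, 7.48 and 6.96 in control, 6.24, 5.92 and 5.91 in T10, 8.45, 7.86 and 7.22 in T50, and 5.91, 5.84 and 6.19 in T100. The T10 and T100 arrays lay below all control and T50 arrays, and the control and T50 arrays overlapped. T50 was above T10 by 1.81 ± 0.33 (3.52-fold, adjusted p = 0.0252) and T100 below T50 by 1.86 ± 0.33 (3.63-fold, adjusted p = 0.0314), while the differences from control, -1.50 in T10 and -1.55 in T100, were not called (adjusted p = 0.0828 and 0.0575). These 2 calls were absent under 7 and 9 of the 19 alternatives, which included leaving out any 1 T10 array for the first and any 1 T100 array for the second.

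None of the 30 genes of collagen synthesis, secretion and turnover was called by limma against control at any dose. This is near what the shares over all genes (0.869%, 1.31% and 1.46%) give for so few genes. Of the 30, 8, 7 and 6 had an unadjusted p under 0.05 in T10, T50 and T100. So had 2778, 2325 and 2733 of all 22093 genes. Among the 4581 genes above background, which include 21 of the 30, 1146, 951 and 1237 had such a p, so nothing particular to the 30 is read from these counts. The smallest p-values were those of Pxdn, which encodes the enzyme that cross-links collagen IV (-0.77, adjusted p = 0.0512), and the collagen galactosyltransferase gene Colgalt1 (-0.32, adjusted p = 0.119) in T10, of the prolyl hydroxylase genes P4ha1 (-0.62, adjusted p = 0.0955) and P4ha3 (-0.85, adjusted p = 0.345) in T50, and of P4ha1 (0.68, adjusted p = 0.0633) and Ctage5, a gene of collagen export (0.14, adjusted p = 0.194), in T100. P4ha1 read 13.98, 13.95 and 13.83 in T100 and 12.39, 12.64 and 12.83 in T50, and this difference of 1.30 ± 0.15 (2.47-fold) was called (adjusted p = 0.00414) under all 19 alternatives as well.

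**Figure D3:**
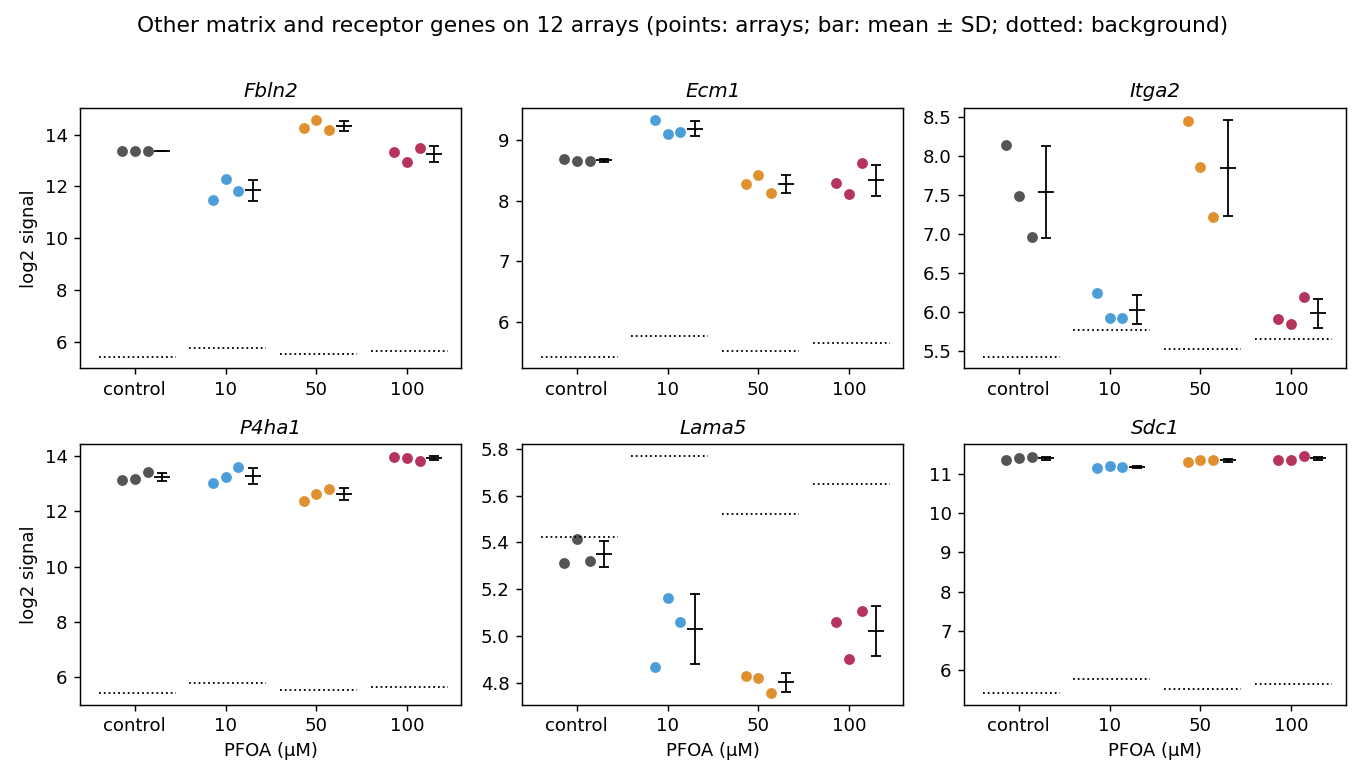
Log2 signal of 6 other matrix, receptor and collagen synthesis genes on each array (points), with the group mean and SD (bars, n = 3) and the background of each group (dotted), in control cells and at 10, 50 and 100 µM PFOA. Fbln2 is lowest at 10 µM and highest at 50 µM, Itga2 is low at 10 and 100 µM, P4ha1 is highest at 100 µM, and all Lama5 points lie under the background of their group. Each panel has its own axis.

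The labelled epithelial cell type was set beside marker genes. Of 9 epithelial and biliary markers, Krt8 alone was above background in any group, and none of 11 hepatocyte and 8 leukocyte markers was. Krt8 held the same value, 19.07, on all 12 arrays. Krt18, Krt19, Krt7, Epcam, Cdh1 and Sox9 were among the epithelial and biliary markers under background in every group. These markers therefore do not settle the epithelial label. Of 12 stellate cell, fibroblast and smooth muscle markers, 4 were above background (Acta2, Vim, Col1a1 and Col3a1), and of 8 endothelial markers Tek was. The summed level of the endothelial list ran from 7.17 to 7.27 in T10, 7.57 to 7.71 in T50, 7.24 to 7.35 in T100 and 7.46 to 7.54 in control, and that of the mesenchymal list, held near the scale's ceiling by Vim, from 19.933 to 19.935 in T10, 19.934 to 19.936 in T50 and 19.947 to 19.955 in T100, and stood at 19.936 in control. In T10, Acta2 (-2.21 ± 0.30, adjusted p = 0.0114) and Tek (-0.64 ± 0.11, adjusted p = 0.0258) fell. Tagln was also called lower (adjusted p = 0.0401), with a signal under background in every group (3.82 ± 0.05 in T10 and 4.20 ± 0.08 in control, SD, n = 3 each). In T100, Acta2 rose by 2.04 ± 0.30 (adjusted p = 0.0134) and Col1a1 by 2.36 ± 0.29 (adjusted p = 0.00712). The part of these shifts in the differences of the 9 genes was not tested. Without control replicate 1 the adjusted p of Acta2 in T10 was 0.0537, without T10 replicate 1 it was 0.0548, and without control replicate 2 or 3 that in T100 was 0.0667 or 0.0523. With the 95th percentile as a covariate the adjusted p of Acta2 was 0.395 in T10 and 0.0564 in T100. With the 6 arrays alone that of Col1a1 in T100 was 0.0593. The Tagln and Tek calls were absent when any 1 control array was left out, with adjusted p-values of at least 0.102 and 0.057, and under 13 of 18 and 8 of 19 alternatives in all.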

How the data were processed

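RNA from 12 samples of TRL1215 cells was amplified and labelled with the WT Plus kit and hybridised to Affymetrix rat arrays, per the labels' protocols. The deposited values are log2 signals, 1 per probe set and array, from 2.87 to 19.93, with array medians between 3.73 and 3.81. The log base was inferred from this range, while the authors' background correction, summary of probes and normalization are not given in the sources used here. No value was transformed further and no pseudocount was added.

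Of 70580 probe sets, 1738 were controls, 23446 had exactly 1 gene symbol in the platform annotation, 505 had several and 44891 had none. Symbols were updated through Entrez identifiers to RefSeq. Of the 23446 probe sets with 1 symbol, 22077 matched, 1 of them was renamed, and those without a match kept the annotation's symbol. The probe set with the highest mean over 12 arrays stood for each of 22093 genes. A model of 4 group means was fitted by lmFit and eBayes (limma 3.58.1, R 4.3.3, two-sided, 8 residual and 1.71 prior degrees of freedom), with Benjamini-Hochberg adjustment over all genes and calls at an adjusted p under 0.05. The script was first tested on simulated data. Genes are above background where a group's mean exceeds the 95th percentile of negative-control probe sets, averaged over its arrays, and folds are given only where both groups are above it.

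The members and lists were chosen with earlier results of these data known. Besides the 9 genes, the text names up to 6 called genes of each list and dose against control, the 2 of lowest p in lists without a call, the other laminin and collagen IV chains, and the 3 genes with the highest r for Lama2, Lamb3, Nid2 and Bcam. Ecm1 and Itga2 were named after their values were seen. The alternatives were quantile normalization, only the 6 arrays compared, only genes above background, an intensity trend with robust hyperparameters, a replicate block, the mean of a gene's probe sets, the 95th percentile as a covariate, and leaving out each array. The labels give no batch or scan date.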

Additional observations from a re-analysis of the deposited data

How the results depend on the processing

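Of the 30 called gene differences, tried under up to 19 alternatives, 469 of 567 values kept the call, 98 lost it and 0 changed sign, and the cause was not tested. Over all genes, 192, 289 and 323 were called in T10, T50 and T100, against 170, 401 and 456 after quantile normalization, 31, 110 and 93 with the 6 arrays compared alone, 266, 298 and 444 of 4581 among genes above background only and 15, 386 and 252 with a covariate for the 95th percentile of each array. The counts below stand beside these. Of the 9 genes, the fit to the 6 arrays alone called 1 in T10 (2 in the fit to 12 arrays), 0 in T100 (3), 0 between T100 and T10 (1) and 0 between T100 and T50 (2). With the covariate, 0 were called in T10 and 0 between T100 and T10. Leaving out 1 array gave 1 to 3 calls in T10, 1 to 3 in T100 and 0 to 2 between T100 and T10. Of the other 94 genes, 2 were called in T10, 1 in T50 and 2 in T100. These counts were 4, 4 and 6 after quantile normalization, 0, 2 and 0 with the 6 arrays alone, 6, 4 and 4 among genes above background only, and 0, 3 and 5 with the covariate. With an intensity trend and robust hyperparameters 2 were called in T50, and with the mean of all probe sets 2 in T50. Leaving out 1 array gave 1 to 5, 1 to 3 and 1 to 5 at those doses.

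Deviations from the group means correlated by -0.22 to 0.11 over the 18 pairs of arrays with the same replicate number, 2 of them above 0.1. Over the 36 other pairs the correlations were -0.23 to 0.26. Most genes in these correlations were under background, so they cannot settle whether a number marks a shared culture or day. The labels do not state it. With a replicate block, 2, 3 and 3 of the 9 genes were called in T10, T50 and T100, as without it, and 4 of the 94 others in T100.

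Among uncalled differences of the 9 genes, those of Lama2, Nid1 and Col4a1 in T10 and of Nid2 and Col4a2 in T50 had the other sign under 1 to 3 alternatives. Precision was limited by 3 arrays a group (SE of 0.25 for Nid1 and 0.04 for Col4a2). Signals under background, for Lama2 outside T50, for Nid2 in T10 and T100 and for Col4a1 and Col4a2 throughout, limit what a difference says on transcript level.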
